A study of Mus musculus with 27 samples.

Results

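The livers of 3 mice given caged food for 60 min were compared with those of 3 fasted mice, which makes 6 of the 27 liver libraries analysed here. Per the labels, all mice were wild type of the strain written C57/BLN6 and had gone without food for 16 h. The caged food group was then exposed for 60 min to food inside a small cage, which let the mice perceive it without eating, and the fasted group got nothing further. Further groups of 3 libraries had caged food for 30 or 120 min or were refed for 60 min. They are described below where they are set against the 60 min caged food or the fasted livers. All 27 libraries entered the fits, so the spread behind every call comes from all groups. Polyadenylated RNA was sequenced with a stranded kit, and the values are normalised read counts per gene.

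The sight and smell of food are registered in the hypothalamus, where neurons of the melanocortin system respond before any nutrient arrives, and the autonomic nerves carry this signal on to the liver. After a long fast the liver makes glucose and burns fatty acids, and a meal turns it to protein secretion and lipid synthesis, both of which load the endoplasmic reticulum (ER). The ER answers a load of unfolded protein with the unfolded protein response, whose transcription factors raise chaperones and the machinery that hands misfolded proteins to the proteasome. Per the title of the series, the comparison asks whether perceiving food is enough to set these liver programmes in motion.

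A gene was called when its adjusted p was under 0.05 (limma on log2 of the value plus 1, Benjamini-Hochberg over all 15932 genes tested). Called were 35 genes, or 0.220% of those tested, of which 22 were higher (0.138%) and 13 were lower (0.0816%) in the caged food livers. Of the risers, Mir294 (log2 difference 1.83, from few reads) and 8430408G22Rik (1.76), which FOXO transcription factors induce, had the largest differences. Then came Ip6k2, an inositol hexakisphosphate kinase that makes inositol pyrophosphates, Il1r1, the interleukin-1 receptor, Herpud1, an ER membrane protein of the unfolded protein response that serves ER-associated degradation, and Trp53inp1, a stress gene under p53. Among the falls was Bcl9, a cofactor of beta-catenin in Wnt signalling. In all 35 genes the 3 caged food libraries lay wholly above or wholly below the 3 fasted ones, which was so for 14.7% of all genes tested (2339). Only 7 of the 35 differed more than 2-fold, 6 of them higher and 1 lower. Without replicate 2 of the caged food livers, described next, 10 of 15889 genes were called (0.0629%), 6 of them higher (0.0378%) and 4 lower (0.0252%).

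Replicate 2 of the caged food group stood apart from the other libraries of its group. On the second principal component of all 27 libraries, which held 8.45% of the variance, it lay at -35.9, with caged food replicates 1 and 3 at 18.5 and 8.5 and the fasted libraries between 8.4 and 16.4. Depth, judged by the gaps that rounding leaves among low values, was about 46.7, 47.3 and 47.0 M reads in caged food replicates 1, 2 and 3. In the fasted libraries it was about 44.9, 40.5 and 49.3 M, and the part of depth in this position was not tested. Acute phase genes, which the liver raises under inflammatory cytokines, were higher in it. Lcn2, the siderophore-binding protein lipocalin-2, had 563, 32456 and 808 normalised counts in caged food replicates 1, 2 and 3, against 281, 289 and 258 in the fasted livers. The marker genes of neutrophils summed to 32, 1600 and 88 normalised counts in the caged food libraries and to 38, 206 and 79 in the fasted ones. Those of Kupffer cells, the resident macrophages of the liver, summed to 17058, 46183 and 19796 in the caged food libraries and to 22517, 19272 and 18420 in the fasted ones. Hepatocyte markers, which check the label of liver, summed to 5911120 to 8038990 in the caged food libraries and to 5747602 to 6554286 in the fasted ones, and all 12 were tested. The other caged food libraries also differed in such markers. Those of erythroid cells summed to 11016, 5991 and 13551 in the caged food libraries and to 9066, 8147 and 6098 in the fasted ones. Their median log2 difference over 6 markers tested was 0.30, and 1 of them passed an unadjusted p under 0.05 on the higher side. Without replicate 2 the median was 0.69 and 3 passed. Of all genes, 5.27% passed on that side with replicate 2 and 5.44% without it. Those of stellate cells, which store vitamin A, summed to 29378, 33362 and 18449 in the caged food libraries and to 27324 to 29398 in the fasted ones, so replicate 3 was the lowest, and their median difference of -0.09 over 12 markers was -0.30 without replicate 2. In whole liver, fewer cells of a type and less RNA per cell cannot be told apart. The counts of calls and most of the gene lists and genes described below are therefore given with and without replicate 2, and the part of these other cells in any result was not tested.

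The promoter windows of Herpud1 and Lurap1l are printed because a motif was found in each, and that of Ip6k2 because this gene had the lowest adjusted p. They come from RefSeq (GRCm38.p6) and run from 250 bases before to 50 bases after the annotated start, on the gene's strand. The Herpud1 window (chr8:94386179-94386478, plus strand) holds the ER stress response element II (ATTGG and CCACG with 1 base of any kind between them), in capitals at -52 to -42, where -1 is the last base before the start. The Lurap1l window (chr4:80910436-80910735, plus strand) holds on its other strand a serum response element, in capitals at -178 to -169, in the only form of this element that was searched. The Ip6k2 window (chr9:108783562-108783861, plus strand) is 1 of 2 listed for this gene and held none of the 5 motifs searched.
Herpud1: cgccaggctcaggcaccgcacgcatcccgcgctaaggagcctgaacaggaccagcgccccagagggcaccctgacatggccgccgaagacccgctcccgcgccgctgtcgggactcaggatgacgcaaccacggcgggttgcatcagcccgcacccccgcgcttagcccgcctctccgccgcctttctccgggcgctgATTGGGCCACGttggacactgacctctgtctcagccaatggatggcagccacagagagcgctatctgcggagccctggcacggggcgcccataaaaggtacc
Lurap1l: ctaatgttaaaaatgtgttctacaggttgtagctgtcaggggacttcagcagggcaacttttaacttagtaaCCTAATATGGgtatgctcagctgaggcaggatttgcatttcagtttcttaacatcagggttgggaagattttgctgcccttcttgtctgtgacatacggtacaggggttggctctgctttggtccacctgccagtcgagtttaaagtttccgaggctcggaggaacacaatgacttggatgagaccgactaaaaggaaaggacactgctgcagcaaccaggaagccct
Ip6k2: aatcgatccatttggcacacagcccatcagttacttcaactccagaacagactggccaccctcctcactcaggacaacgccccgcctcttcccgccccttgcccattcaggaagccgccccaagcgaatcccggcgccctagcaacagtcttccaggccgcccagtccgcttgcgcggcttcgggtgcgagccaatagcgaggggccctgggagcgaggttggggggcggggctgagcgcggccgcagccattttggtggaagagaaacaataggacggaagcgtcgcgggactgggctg

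Of the 22 genes that rose, 16 had a window in the RefSeq table, and of the 13 that fell, 11 did. Both strands were searched for 5 motifs. The ER stress response element II was found in the window of 1 riser, Herpud1, and in 0.0365% of all 32851 windows (12). The serum response element was found in 1 riser, Lurap1l, and in 0.0639% of all windows (21). The longer ER stress response element (CCAAT and CCACG with 9 bases of any kind between them, 0.119% of all windows), the cAMP response element TGACGTCA (1.79%) and the FOXO site TGTTTAC (3.65%) were found in none of the risers' windows, and no motif was found in a window of a gene that fell. A match is a stretch of letters and not a site shown to be bound, and the absence of one says only that these letters are not in the window.

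Among the genes that rose, Ip6k2 (chr9:108783796-108806337, plus strand, GRCm38) was, with Bcl9 among the fallers, the gene whose call held in most of the alternative fits. It had 3786, 5544 and 4520 normalised counts in the caged food livers, against 2005, 2270 and 1416 in the fasted livers. Every caged food library, replicate 2 or not, exceeded every fasted one. The log2 difference was 1.29 with an SE of 0.16 (2.45-fold, limma adjusted p = 0.000450), and without replicate 2 it was 1.15 (limma adjusted p = 0.00430).

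Herpud1 (chr8:94386438-94395377, plus strand) was the most abundant of the risers whose role lies in the ER. Its normalised counts were 29422, 26317 and 31158 in the caged food livers and 17306, 14594 and 9280 in the fasted livers. The lowest caged food library, replicate 2, stood above the highest fasted one, and fasted replicate 3 was the lowest of all. The log2 difference was 1.12 with an SE of 0.24 (2.18-fold, limma adjusted p = 0.0467), and it was 1.19 without replicate 2, where the adjusted p of 0.0784 missed the threshold. Cln8 (chr8:14881335-14901720, plus strand), an ER cargo receptor that sends newly made lysosomal enzymes towards the Golgi, had 2874, 2969 and 2879 normalised counts in the caged food livers and 1857, 1717 and 1288 in the fasted livers. The caged food libraries hardly differed from each other and all lay above the fasted ones, with a log2 difference of 0.86 and an SE of 0.13 (1.81-fold, limma adjusted p = 0.00442). It was called without replicate 2 as well, at 0.84 (limma adjusted p = 0.0175).

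Genes of stress and cytokine signalling were the next group. Trp53inp1 (chr4:11156431-11174379, plus strand), which p53 induces and which takes part in autophagy, had 7613, 7281 and 6577 normalised counts in the caged food livers and 4044, 3915 and 2701 in the fasted livers. The groups did not overlap and the log2 difference was 1.03 with an SE of 0.22 (2.04-fold, limma adjusted p = 0.0486). Without replicate 2 the difference was 1.02 and the adjusted p 0.118, so the call was lost while the size was kept. Il1r1 (chr1:40225080-40317257, plus strand) had 3744, 7393 and 3301 normalised counts in the caged food livers and 2170, 2240 and 1713 in the fasted livers. Replicate 2 was far above the other caged food libraries, and these still lay above all fasted ones. Its log2 difference of 1.15 (SE 0.24, limma adjusted p = 0.0467) became 0.79 without replicate 2 (adjusted p = 0.185), the steepest loss of size among the 35 genes. Sdc4, the heparan sulphate proteoglycan syndecan-4, had 26273, 32301 and 24763 normalised counts in the caged food livers and 17492, 15688 and 14532 in the fasted livers, again without overlap and with replicate 2 on top. Its log2 difference was 0.80 (limma adjusted p = 0.0350) and 0.69 without replicate 2 (adjusted p = 0.116).

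**Figure D1:**
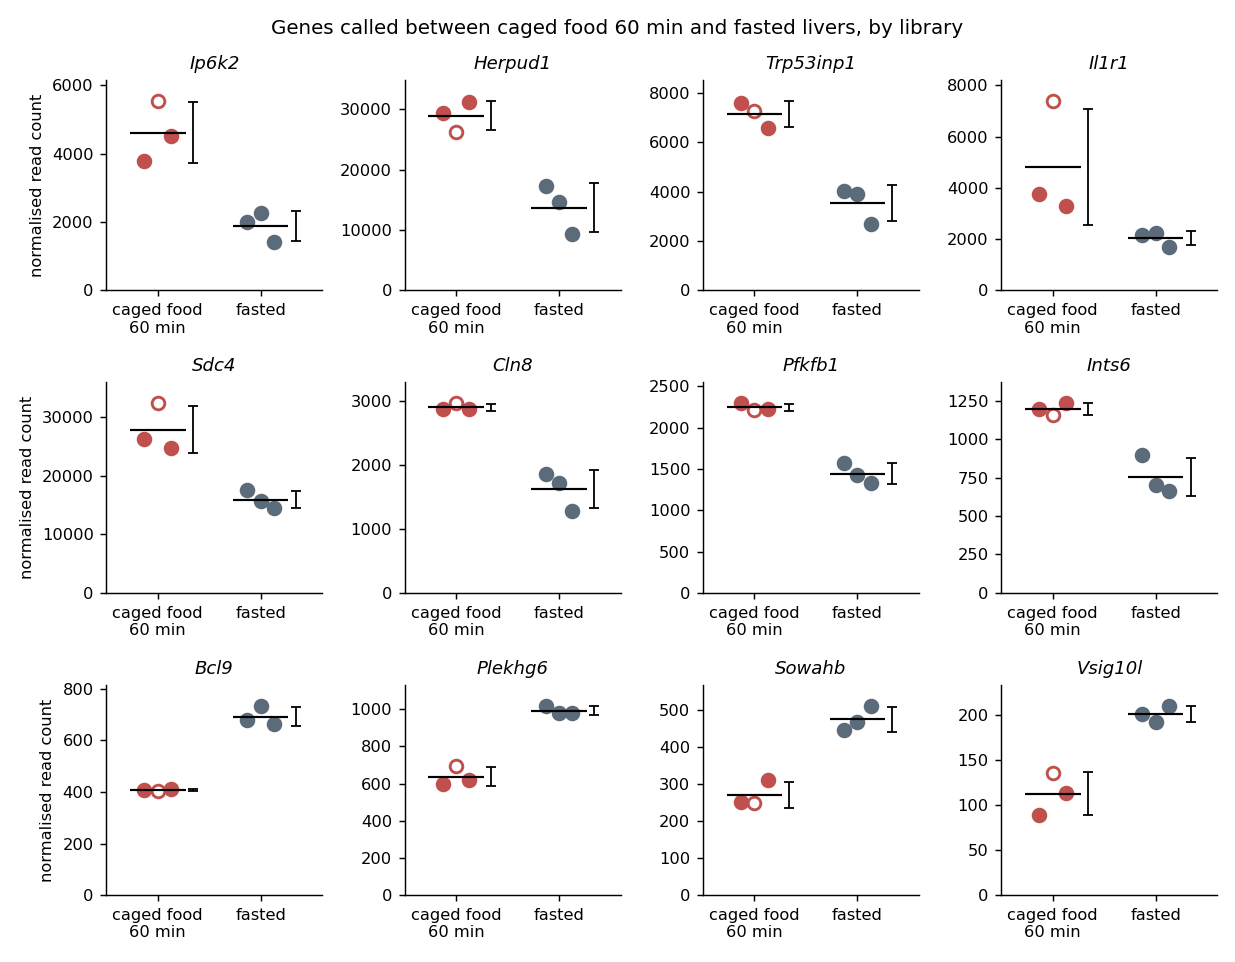
Normalised read counts of 12 called genes in each of the 3 caged food 60 min libraries (left in each panel, replicate 2 as an open circle) and the 3 fasted libraries (right), with the mean as a line and the SD beside it; axes start at 0. In every panel the groups do not overlap, and replicate 2 is the highest caged food value for Ip6k2, Il1r1, Sdc4, Cln8, Plekhg6 and Vsig10l.

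Pfkfb1 was the only called gene on the list of glucose use and glycogen. It encodes the bifunctional enzyme of liver that makes and breaks down fructose 2,6-bisphosphate, a switch between glycolysis and gluconeogenesis. Its normalised counts were 2294, 2218 and 2219 in the caged food livers, against 1571, 1432 and 1324 in the fasted livers, without overlap. The log2 difference was 0.64 (SE 0.14, limma adjusted p = 0.0467), and without replicate 2 it was 0.65 (adjusted p = 0.108). An exon of Pfkfb1 overlaps one of Apex2 on the opposite strand, and whether the counting used strand is not given in the sources used here, so reads of the pair may not be told apart.

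Several risers act on transcripts or on membranes. Ints6, a subunit of the Integrator complex that ends many short transcripts, had 1196, 1155 and 1232 normalised counts in the caged food livers and 898, 702 and 663 in the fasted livers, a log2 difference of 0.67 (limma adjusted p = 0.0258) and of 0.70 without replicate 2 (adjusted p = 0.0677). Rabgef1, which activates the endosomal GTPase Rab5, had 1029, 936 and 1161 in the caged food livers and 742, 705 and 693 in the fasted livers, with a log2 difference of 0.54 (limma adjusted p = 0.00869) and of 0.62 without replicate 2 (adjusted p = 0.00430). Neither gene overlapped between the groups, and Rabgef1, like Ip6k2 and Cln8, did not need replicate 2 for its call. The rule for named genes, which leaves out clone names and genes of low level, also named Fam25c (log2 difference 0.88), Rbm12b2 (0.85), Zpr1 (0.74) and Lurap1l (0.63) among the risers, with limma adjusted p between 0.0199 and 0.0467. Without replicate 2 these differed by 0.91, 0.77, 0.72 and 0.57, and their adjusted p lay between 0.0747 and 0.116. Zpr1, a zinc finger protein, had 4011, 4333 and 4440 normalised counts in the caged food livers and 3077, 2287 and 2368 in the fasted livers. Exons of Ints6 and Rbm12b2 overlap genes on the opposite strand, as described for Pfkfb1.

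The 9 risers outside these were taken in after their values were seen, to complete the set. The most abundant of those that differed more than 2-fold was 8430408G22Rik, which the annotation names Depp1. It had 5263, 8667 and 4152 normalised counts in the caged food livers and 1753, 1627 and 1711 in the fasted livers. All caged food libraries were more than 2-fold above all fasted ones, and replicate 2 was again the highest. The log2 difference was 1.76 (SE 0.37, 3.38-fold, limma adjusted p = 0.0467) and 1.46 without replicate 2 (adjusted p = 0.167). Mir294, with 24, 40 and 26 normalised counts in the caged food livers and 10, 7 and 6 in the fasted ones, had the largest log2 difference of all risers, 1.83, from very few reads (limma adjusted p = 0.0467, and 0.151 without replicate 2). Its hairpin overlaps an exon of Nlrp12 on the opposite strand, and libraries of polyadenylated RNA do not measure the mature miRNA. The remaining 7, Tmcc1, Susd6, Ccdc117, Gin1, D230025D16Rik, Prdm2 and Kansl1, differed by 0.28 to 0.57 on the log2 scale. Prdm2 and Kansl1 encode a histone methyltransferase and a scaffold of a histone acetyltransferase complex.

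Among the genes that fell, Bcl9 (chr3:97203662-97297917, minus strand) was the most even. It had 407, 404 and 412 normalised counts in the caged food livers, against 678, 734 and 665 in the fasted livers. The caged food libraries hardly differed from one another and lay far below the fasted ones. The log2 difference was -0.76 (SE 0.10, limma adjusted p = 0.000850), and without replicate 2 it was -0.75 (adjusted p = 0.00430).

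Several of the other fallers act in the nucleus. Rcor3, of the CoREST corepressor family, had 319, 249 and 303 normalised counts in the caged food livers and 394, 410 and 421 in the fasted livers, a log2 difference of -0.50 (limma adjusted p = 0.0467). Pias3, a SUMO ligase known as an inhibitor of STAT3, had 464, 419 and 441 in the caged food livers and 621, 585 and 635 in the fasted livers, a log2 difference of -0.48 (limma adjusted p = 0.0467). The zinc finger gene Zmym3 fell by 0.44 and the homeobox gene Homez fell by 0.46 on the log2 scale. None of these 4 genes overlapped between the groups, and none was called without replicate 2. Pias3 and Rcor3 each share exon sequence with a gene on the opposite strand, as do Homez and Dgke.

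Signalling and membrane genes made up the other falls. Plekhg6, an exchange factor for small GTPases, had 597, 694 and 617 normalised counts in the caged food livers and 1017, 977 and 977 in the fasted livers. Vsig10l had 89, 136 and 113 in the caged food livers and 201, 192 and 210 in the fasted livers. Both were called with replicate 2 and without it, with log2 differences of -0.64 and -0.71 for Plekhg6 (limma adjusted p = 0.0211 and 0.0212) and of -0.85 and -0.99 for Vsig10l (0.0258 and 0.0119). The caged food libraries of both genes lay well below all fasted ones. Sowahb (-0.81), Slc18b1, a vesicular polyamine transporter (-0.63), Dgke, a diacylglycerol kinase (-0.62), and Whamm, which starts actin filaments at membranes (-0.41), completed the named falls. Without replicate 2 these differed by -0.76, -0.64, -0.66 and -0.38, and none was called. 1700028J19Rik, taken in after its values were seen, had 4, 1 and 2 normalised counts in the caged food livers and 12, 8 and 15 in the fasted ones, a log2 difference of -1.99 that rests on few reads (limma adjusted p = 0.0486, and 0.185 without replicate 2). Exons of Vsig10l and Whamm overlap a predicted gene on the same strand, so their reads could be split.

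Leaving out replicate 2 changed which genes were called more than how far they differed. All 35 genes kept their direction and an unadjusted p under 0.05, with a log2 difference 0.690 times (Il1r1) to 1.17 times (Vsig10l) that with all 3 libraries. Since the groups overlapped in none of these genes, leaving out 1 library could not turn a direction. The genes had also been chosen on the libraries that remained, so neither result is an independent check. The 6 genes called both ways were Ip6k2, Cln8, Rabgef1, Bcl9, Plekhg6 and Vsig10l. Another 4 were called only without replicate 2. Fkbp5, a co-chaperone of steroid receptors and a classic target of glucocorticoids, had 7654, 4032 and 8319 normalised counts in the caged food livers and 4559, 3113 and 3513 in the fasted livers. Replicate 2 lay inside the fasted range and the other caged food libraries above it, and the log2 difference was 0.79 with replicate 2 (limma adjusted p = 0.180) and 1.12 without it (0.0322). Hexim1, an inhibitor of the transcription elongation factor P-TEFb, had 2573, 1942 and 2735 in the caged food livers and 1738, 1660 and 1632 in the fasted livers. Dusp16, a phosphatase of JNK, had 2901, 2274 and 2943 in the caged food livers and 2199, 1926 and 1828 in the fasted livers. For both genes replicate 2 was the caged food library nearest to the fasted ones, and without it the log2 differences were 0.66 and 0.56 (limma adjusted p = 0.0129 and 0.0286). Wisp2, taken in after its values were seen, had 2, 30 and 4 in the caged food livers and 27, 25 and 23 in the fasted livers.

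**Figure D2:**
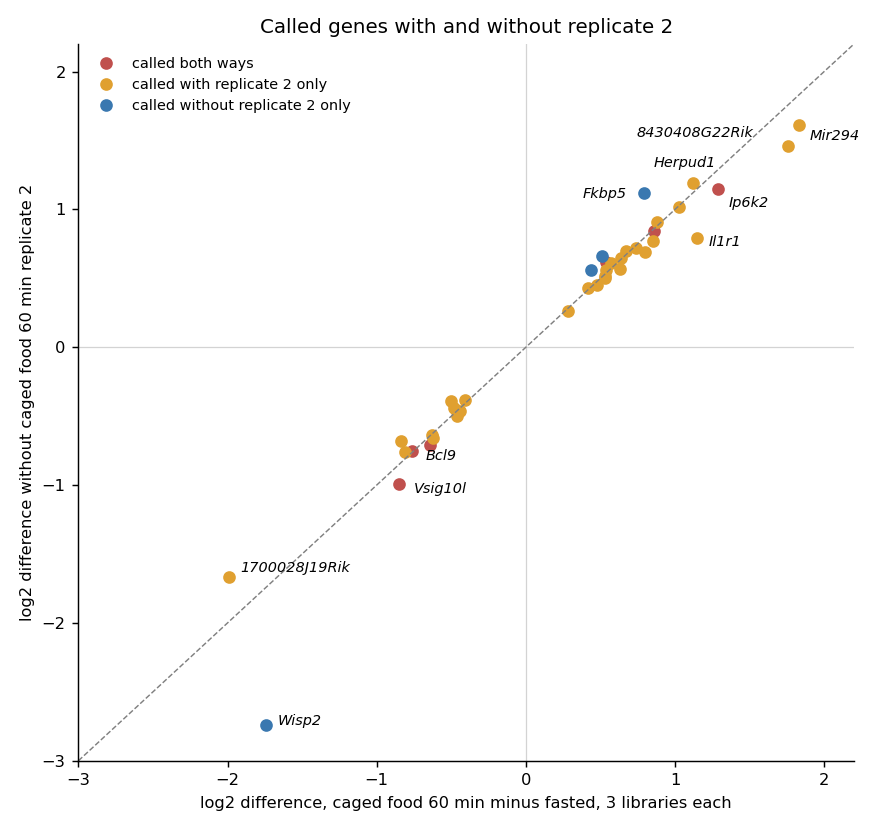
Log2 difference of caged food 60 min minus fasted livers with all 3 libraries a group (horizontal axis) and without caged food replicate 2 (vertical axis), for the 35 genes called with it and the 4 called only without it; the dashed line marks equal values. The points lie near the line, with Il1r1 below it (1.15 and 0.79), Fkbp5 above it (0.79 and 1.12) and Wisp2 furthest from it (-1.74 and -2.74).

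The calls also leaned on single fasted libraries. Without fasted replicate 3, the lowest fasted library for Ip6k2, Herpud1, Trp53inp1, Il1r1, Cln8 and Sdc4, only Ip6k2 and Bcl9 were called, and without fasted replicate 2 there were 5 calls, with these, Cln8 and Rbm12b2 among them. Ip6k2 and Bcl9 were called in 13 of the 14 alternative fits. In the limma fit of the 6 libraries alone, where no gene was called and 1401 had an unadjusted p under 0.05, their adjusted p was 0.115. The call of Cln8 held in 12 of the 14 fits, those of Herpud1 and Il1r1 in 4, that of Pfkfb1 in 3 and that of Trp53inp1 in 2.

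Of the 35 called genes, 4 were members of at least 1 of the 39 lists of pathway genes, and 31 were in none. These lists and the 16 of cell type markers together hold 941 genes, beside 15932 tested, so most genes tested are in none either. The 6 lists with a median log2 difference of at least 0.30 either way were acute phase proteins, glucocorticoid-induced genes, cytosolic heat shock, immediate early genes, ER chaperones and cell cycle genes, beside a median of 0.01 over all genes tested. For these and some other lists, counts at an unadjusted p under 0.05 are given below. Of all genes, 5.27% reached it on the higher side and 4.58% on the lower side (5.44% and 5.21% without replicate 2). Groups without overlap, given below for single members, were seen in 14.7% of all genes tested.

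ER chaperones and folding factors had a median log2 difference of 0.30 over 27 members, of which none was called, 12 passed the unadjusted threshold on the higher side and none on the lower side. Without replicate 2 the median was 0.17 and 4 members passed. Relative to the fasted mean, the list's median stood at 0.18, 0.51 and 0.21 in caged food replicates 1, 2 and 3, and at -0.12, 0.07 and 0.02 in the fasted libraries, so all caged food libraries were above the fasted ones and replicate 2 was the highest. Hspa5, the main ER chaperone BiP, had 34443, 54080 and 31038 normalised counts in the caged food livers and 21580, 29690 and 27790 in the fasted livers, a log2 difference of 0.57 that missed the threshold (limma adjusted p = 0.359) and became 0.32 without replicate 2. Dnajb9, a cochaperone of BiP, had 1788, 2477 and 2125 in the caged food livers and 1441, 1347 and 1265 in the fasted livers (0.65, limma adjusted p = 0.175, and 0.53 without replicate 2). In both genes the groups did not overlap. Sdf2l1, another partner of BiP in the ER lumen, had 567, 2055 and 857 in the caged food livers and 513, 605 and 564 in the fasted livers, where caged food replicate 1 lay within the fasted range.

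ER-associated degradation had Herpud1 as its 1 call among 20 members, with a median of 0.15 (0.12 without replicate 2, and no call). Edem1, which steers misfolded glycoproteins to destruction, had 7236, 8300 and 7669 normalised counts in the caged food livers and 6159, 5933 and 5503 in the fasted livers (log2 difference 0.40, limma adjusted p = 0.209, and 0.35 without replicate 2). Among the 33 genes of ER translocation and COPII export none was called, 9 passed the unadjusted threshold on the higher side and the median was 0.12, while without replicate 2 only 4 passed and the median was 0.11. The sensors and factors of the unfolded protein response stood close to all genes, with a median of 0.09 over 15 members, none called and 2 past the unadjusted threshold, both higher. Xbp1, the factor spliced by IRE1, had 8881, 12282 and 9245 in the caged food livers and 8099, 8953 and 8938 in the fasted livers, with overlap. Ddit3, or CHOP, had 380, 565 and 538 in the caged food livers and 325, 284 and 277 in the fasted livers, a difference of 0.72 without overlap that missed the threshold (limma adjusted p = 0.187) and was 0.62 without replicate 2.

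Of these 6 lists, the cytosolic heat shock genes depended least on replicate 2. Of 19 members none was called, 8 passed the unadjusted threshold on the higher side with and 8 without replicate 2, and the median was 0.38 and 0.36. The list's median stood at 0.32, 0.31 and 0.29 in the caged food libraries and between -0.06 and 0.06 in the fasted ones. Hsph1, a cochaperone of Hsp70, had 2515, 2317 and 2393 normalised counts in the caged food livers and 1535, 1495 and 1315 in the fasted livers, which did not overlap, and its log2 difference of 0.74 missed the threshold (limma adjusted p = 0.0837). Hspb8, a small heat shock protein, had 10108, 13269 and 10697 in the caged food livers and 9046, 7474 and 7798 in the fasted livers (0.48, limma adjusted p = 0.0552). Dnajb1, another Hsp70 partner, differed by 0.60 (limma adjusted p = 0.0981) and the inducible Hsp70 gene Hspa1b by 1.17 from low levels (0.284). Without replicate 2 the differences of Hsph1, Hspb8, Dnajb1 and Hspa1b were 0.76, 0.36, 0.64 and 1.01.

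Glucocorticoid-induced genes had a median of 0.46 over 18 members and 5 at the unadjusted threshold on the higher side. No member was called with replicate 2 and 1, Fkbp5, without it, where the median was 0.29 and 4 passed. Lcn2, shown above to be far higher in replicate 2 than in the other libraries, is also on this list. It was among the 3 members of lowest p, with Fkbp5 and Zbtb16. Zbtb16, a zinc finger gene induced by glucocorticoids, had 4440, 1071 and 3117 normalised counts in the caged food livers and 1427, 121 and 136 in the fasted livers. Fasted replicate 1 exceeded caged food replicate 2, and with this spread the log2 difference of 3.09 was not called (limma adjusted p = 0.198), nor was that of 3.69 without replicate 2 (0.183).

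Immediate early genes, which answer a signal without new protein synthesis, had a median of 0.34 over 27 members, with 10 at the unadjusted threshold on the higher side and 1 on the lower, and none called. Without replicate 2 these were 0.27, 8 and 0. Fosl2, an AP-1 subunit, had 558, 1226 and 429 in the caged food livers and 338, 333 and 326 in the fasted livers (log2 difference 1.0, limma adjusted p = 0.0747), and Btg1, an antiproliferative gene, had 1206, 1103 and 1395 in the caged food livers and 801, 913 and 933 in the fasted livers (0.48, 0.206). Both were without overlap, and without replicate 2 both differed by 0.56. Fos, Egr1 and Nr4a1 overlapped between the groups, with 51, 63 and 16 normalised counts of Fos in the caged food livers and 30, 36 and 36 in the fasted livers. Cell cycle genes, low in this resting tissue, had a median of 0.30 over 24 members (0.18 without replicate 2), with none called and 1 past the unadjusted threshold, on the lower side.

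Among the 39 lists of pathway genes, acute phase proteins had the largest median, 0.68 over 27 members, and it rested on replicate 2. With it, 1 member was called and 19 passed the unadjusted threshold on the higher side. Without it none was called, 5 passed and the median was 0.24. The called member, Il1r1, is a receptor gene on this list and not itself an acute phase protein. The list's median stood at 0.27, 1.71 and 0.08 in the caged food libraries and at -0.09, 0.07 and 0.05 in the fasted ones. Il6ra, the interleukin-6 receptor, did not follow replicate 2, with 6063, 5342 and 5497 normalised counts in the caged food livers and 4183, 3581 and 2448 in the fasted livers (log2 difference 0.76, limma adjusted p = 0.0981, and 0.80 without replicate 2). Neutrophil markers moved with the acute phase genes in replicate 2, and the summed values are given above.

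**Figure D3:**
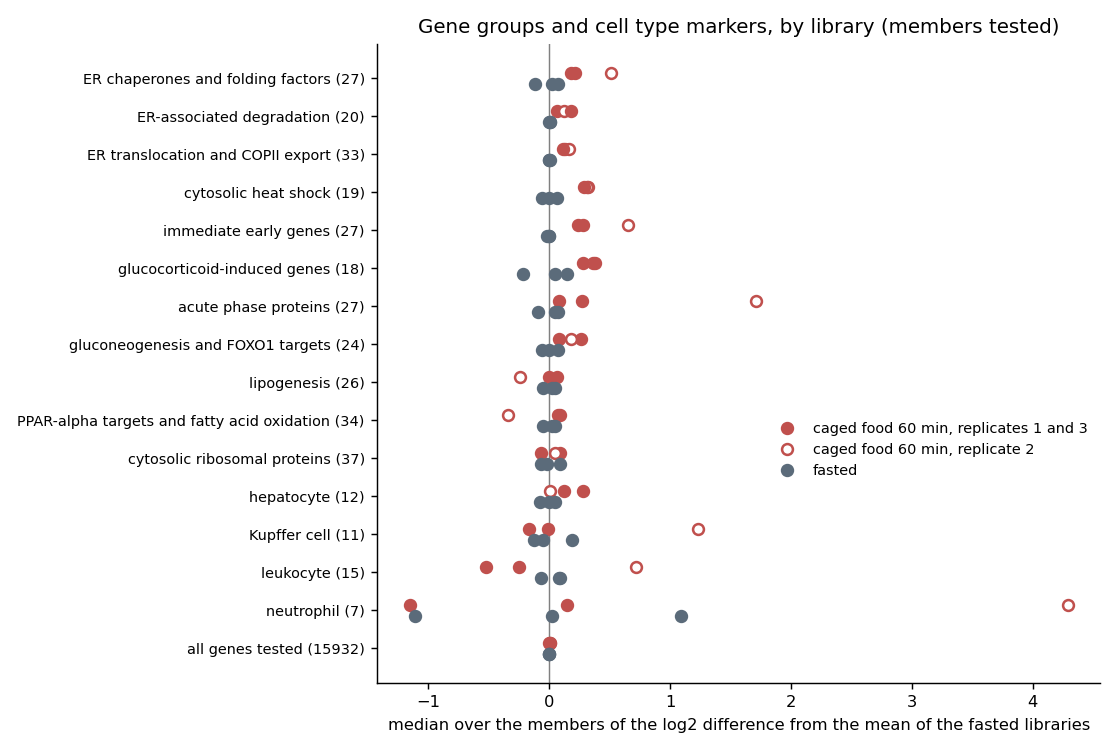
Median log2 difference of each list's members relative to the fasted mean, for the caged food 60 min libraries (replicate 2 as an open circle) above the fasted libraries; the number of members tested follows each name. Replicate 2 lies far right for acute phase proteins (1.71), Kupffer cell markers (1.23) and neutrophil markers (4.29), while the heat shock medians of the caged food libraries lie together at 0.29 to 0.32.

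The metabolic lists had medians from -0.10 (lipogenesis) to 0.22 (cytochrome P450 and xenobiotic genes), beside 0.01 over all genes tested. Of the 21 cytochrome P450 and xenobiotic genes tested, none was called and 2 passed the unadjusted threshold on the higher side. Without replicate 2 their median was 0.28 and 5 passed. Gluconeogenesis and FOXO1 targets had a median of 0.15 over 24 members (0.13 without replicate 2), no call and 3 members past the unadjusted threshold, all higher. G6pc and Pck1, which make glucose, overlapped between the groups, with 22309, 20459 and 18430 normalised counts of G6pc in the caged food livers and 14419, 22279 and 17062 in the fasted livers. Irs2, the insulin receptor substrate that falls on feeding, had 1767, 1947 and 1375 in the caged food livers and 961, 1093 and 1107 in the fasted livers, without overlap and not called (log2 difference 0.67, limma adjusted p = 0.346, and 0.57 without replicate 2). Lipogenesis had a median of -0.10 over 26 members, cholesterol synthesis of -0.02 over 25, and the targets of PPAR-alpha of -0.06 over 34. Without replicate 2 these medians were -0.01, 0.0 and 0.07. No member of these lists was called, and 2 of lipogenesis and 1 of the PPAR-alpha targets, all higher, and 1 of cholesterol synthesis, lower, passed the unadjusted threshold. Lpin2, a phosphatidate phosphatase, had 30031, 27143 and 32379 in the caged food livers and 22463, 20098 and 13166 in the fasted livers (0.72, limma adjusted p = 0.0679, and 0.78 without replicate 2). Srebf1 and Fgf21 overlapped between the groups. Cytosolic ribosomal proteins had a median of 0.03 over 37 members, and the insulin receptor and mTORC1 pathway of 0.04 over 32 (0.01 and 0.08 without replicate 2).

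Eating and sensing food for the same 60 min were compared directly, with no fasted library in the contrast. Caged food livers differed from refed ones in 1738 genes (10.9% of those tested), of which 666 were higher (4.18%) and 1072 lower (6.73%) in the caged food livers. Without replicate 2 the count was 1442 (9.08%). Igfbp1, an insulin-repressed binding protein of insulin-like growth factors, had 5769, 21143 and 5979 normalised counts in the caged food livers and 831, 190 and 147 in the refed livers, a log2 difference of 4.97 (limma adjusted p = 2.97e-06) and of 4.36 without replicate 2. G6pc had 3436, 2005 and 1700 in the refed livers, so that its caged food values above were higher by 3.16 on the log2 scale (limma adjusted p = 6.63e-08). Onecut1, a hepatocyte transcription factor, had 222, 178 and 182 in the caged food livers and 3657, 4278 and 3370 in the refed livers (-4.27, limma adjusted p = 9.24e-09). None of these genes overlapped between the groups, Igfbp1 was highest in replicate 2, and the differences of G6pc and Onecut1 without it were 3.16 and -4.21. The other genes named by the rule, which leaves out clone names such as 8430408G22Rik (4.52, and 4.23 without replicate 2), were Chac1, Angptl4 and Irs2 on the higher side at 2.82 to 3.20, and Cish, Serpina4-ps1, Serpina9 and RP23-59B8.1 on the lower side at -3.91 to -6.48.

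**Figure D4:**
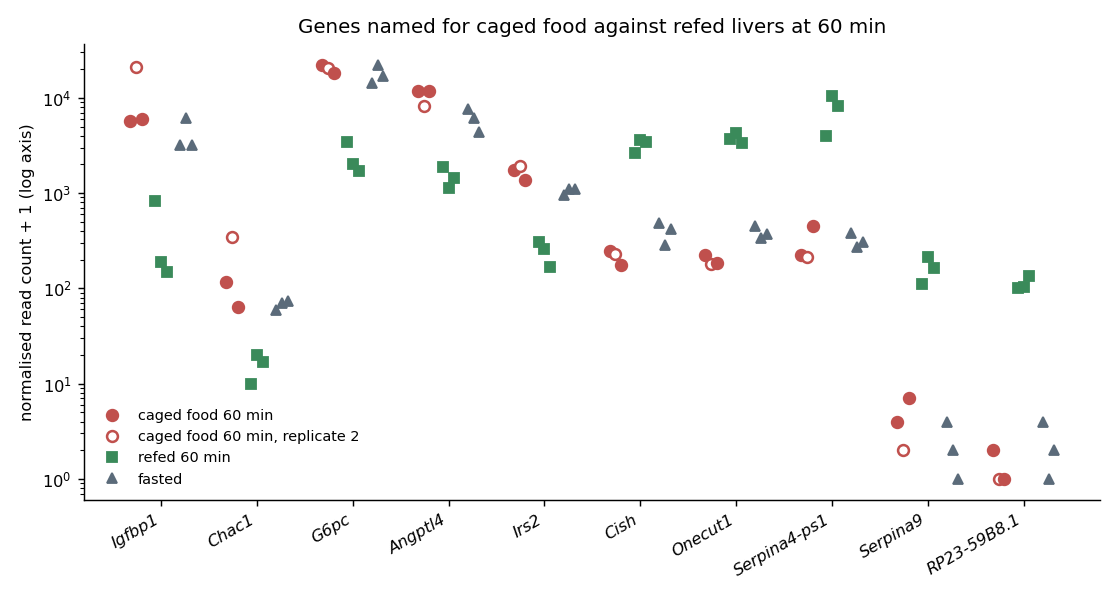
Normalised read counts plus 1 (log axis) of the 10 genes named for the comparison of caged food 60 min libraries (circles, replicate 2 open) with refed 60 min libraries (squares), with the fasted libraries (triangles) beside them. For each gene the caged food and refed libraries are apart, as for G6pc with at least 18430 normalised counts in caged food livers and at most 3436 in refed livers.

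Of the 35 genes called against fasted livers, 21 differed in the same direction between caged food and refed livers and 1 in the opposite direction, beside 10.9% of all genes tested. Without replicate 2, 17 of the 35 did so in the same direction, beside 9.08% of all genes. The 60 min caged food libraries enter both contrasts, so this is no independent count. Refed livers differed from the same fasted libraries in 7.26% of genes on the higher and 3.75% on the lower side. Set beside each other against these shared fasted libraries, 3 risers were lower after refeeding. 8430408G22Rik had a log2 difference of 1.76 with caged food and of -2.76 with refeeding, Ip6k2 of 1.29 and -1.50, and Cln8 of 0.86 and -0.46, all of them called. The refed livers held 433, 185 and 192 normalised counts of 8430408G22Rik and 624, 676 and 676 of Ip6k2. Ints6, Rbm12b2, Ccdc117, Prdm2 and Kansl1 were called as higher both with caged food (0.67, 0.85, 0.53, 0.42 and 0.28) and with refeeding (0.91, 0.91, 1.10, 0.42 and 0.27). Ccdc117 was the gene that was lower in caged food than in refed livers (-0.57, limma adjusted p = 0.00102). Of the 13 fallers, 8 were called as lower after refeeding too, Bcl9 among them at -0.34, and Bcl9 was lower still with caged food than after refeeding (-0.42, limma adjusted p = 0.00694).

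The response was also set against caged food for 30 and 120 min. None of the 35 genes was called by limma in either group against fasted livers, where 2 genes (0.0126%) and 6 genes (0.0377%) were called in all. At an unadjusted p under 0.05 there were 10 of the 35 after 30 min and 7 after 120 min, beside 7.05% and 7.70% of all genes. The 35 genes were chosen against the same fasted libraries, which enter these contrasts too, so these are no independent counts. For some risers the difference from fasted livers after 30 min was near that after 60 min, as for Mir294 (log2 difference 1.81 after 30 min and 1.83 after 60 min), Zpr1 (0.65 and 0.74) and Trp53inp1 (0.76 and 1.03). Set directly against 30 min, the 60 min livers differed by 0.02, 0.09 and 0.27 in these genes, none of them called. Tested directly, 60 min differed from 30 min in 27 genes (0.169%) and from 120 min in 167 genes (1.05%), and 8 and 18 of the 35 were among them, all in the direction of their difference from fasted livers. These genes were chosen on the 60 min libraries, which enter these contrasts too. Ip6k2 had 2170, 2110 and 2272 normalised counts after 30 min, 3786, 5544 and 4520 after 60 min and 1679, 1647 and 1642 after 120 min. Its 60 min libraries stood above all others, by 1.06 over 30 min (limma adjusted p = 0.0109) and by 1.46 over 120 min (5.05e-05). Bcl9 had 659, 647 and 578 after 30 min, 407, 404 and 412 after 60 min and 690, 721 and 775 after 120 min, lowest at 60 min by -0.62 (limma adjusted p = 0.0109) and -0.83 (8.82e-05). Herpud1 had 14235, 13666 and 12971 after 30 min and 16905, 16296 and 10393 after 120 min, and differed from 120 min by 1.02 (limma adjusted p = 0.0349). Without 60 min replicate 2 that difference was 1.09 and no longer called (adjusted p = 0.0730), and it was not called without caged food 120 min replicate 3 either.

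Other libraries also stood apart at these times. Caged food 30 min replicate 1 lay at -35.7 on the second principal component and caged food 120 min replicate 3 at -15.5. Without the first, 14 genes differed between 60 and 30 min, 5 of the 35 among them, and without the second, 32 differed between 60 and 120 min, 8 of the 35 among them. Without 60 min replicate 2, the counts were 31 genes (0.195%) with 7 of the 35, and 70 genes (0.441%) with 11 of the 35. Ip6k2, Ints6 and Bcl9 were called at both times under each of these. Slc25a25, a mitochondrial ATP carrier, was the gene named at both times that had missed the threshold against fasted livers (log2 difference -1.76, limma adjusted p = 0.0552). It had 28468, 19215 and 19359 normalised counts after 30 min, 5076, 4621 and 3832 after 60 min and 16620, 19435 and 24915 after 120 min, against 9452, 19588 and 19022 in the fasted livers. The 60 min libraries were below all others, by -2.29 from 30 min (limma adjusted p = 0.0122) and by -2.16 from 120 min (0.00696), and without replicate 2 by -2.32 and -2.18 (0.0314 and 0.0243).

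**Figure D5:**
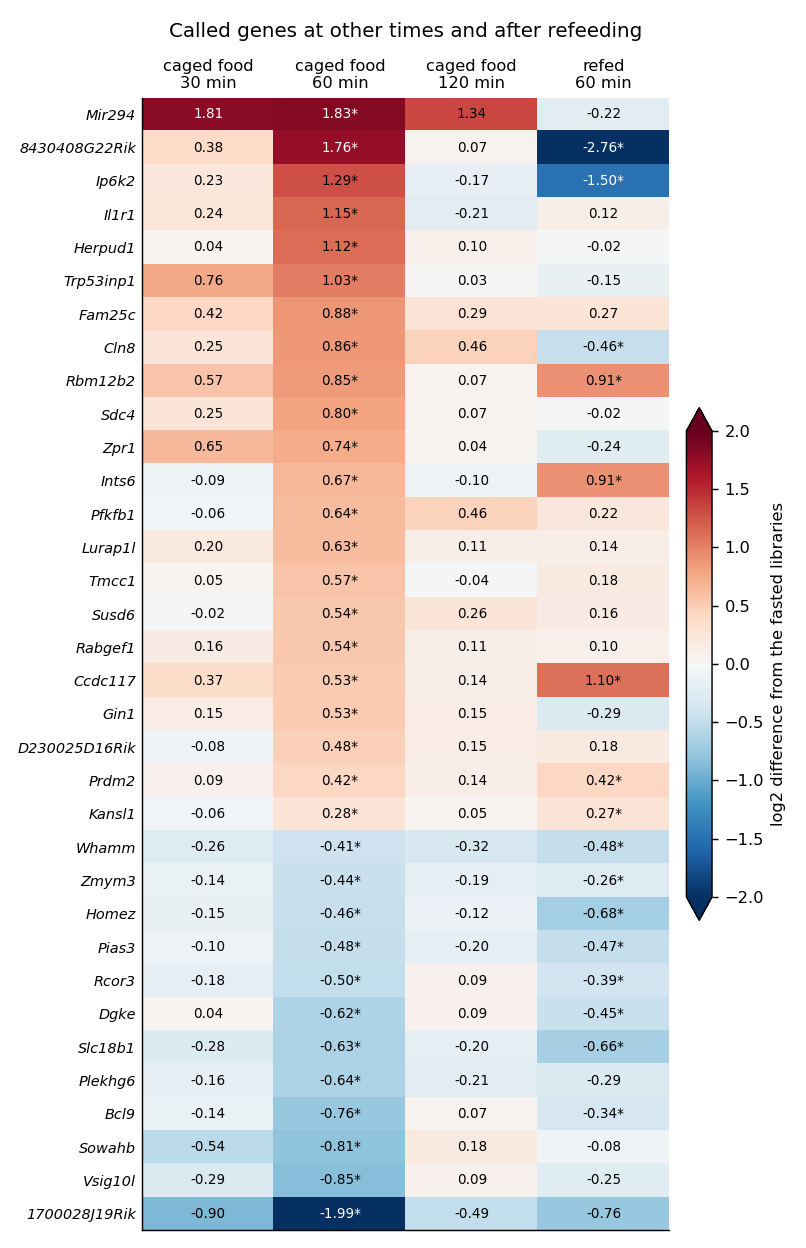
Log2 difference from the fasted libraries of called genes in livers after caged food for 30, 60 and 120 min and after refeeding for 60 min, in colour and as printed values; a star marks an adjusted p under 0.05. All columns share the same 3 fasted libraries, and stars outside the 60 min caged food column stand only in the refed column, red for Ints6, Rbm12b2, Ccdc117, Prdm2 and Kansl1 and blue for 8430408G22Rik, Ip6k2, Cln8 and 8 fallers.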

How the data were processed

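Liver RNA was sequenced in 27 libraries, prepared with the TruSeq stranded mRNA kit per the labels. Per the submitters' processing notes, reads were aligned to mm10 (GRCm38) with STAR 2.4.0a and assigned to genes with featureCounts 1.4.5-p1 (Subread). Each deposited score is a read count per gene and library that the authors scaled between libraries and rounded. How they scaled, and whether counting used strand, is not given in the sources used here. Since these are not raw counts, no count model was used. Depth was estimated from the spacing of low values at 25.6 to 52.4 M reads a library.

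Libraries were grouped by title into 9 groups of 3. Titles and treatment labels conflict for 2 libraries at 240 min, which an alternative leaves out. The design text speaks of 60 samples, and those beyond the 27 were not analysed here. Of the 45706 genes, the 15932 reaching a value of 10 in 3 or more libraries were tested on log2 of the value plus 1 with limma 3.58.1 (R 4.3.3) and a mean-variance trend, fitted to all 27 libraries and adjusted by Benjamini-Hochberg. The design calls the replicates biological. The fits were tested on simulated data. Same-numbered libraries of both groups did not deviate together (r of -0.0862, 0.0166 and -0.02), so numbers were not taken as pairs.

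Gene lists, named genes and alternatives were chosen with earlier results of these data known. Named were the 12 largest called differences each way whose higher group averaged 50 or more and did not overlap the other, from the fits with and without caged food 60 min replicate 2 and without predicted, clone and sex-linked genes, then up to 3 members of lowest p per list described, a fixed panel of metabolic and stress genes, and the 5 largest differences each way in the direct comparisons. The 39 gene lists and 16 marker lists hold 949 entries, of which 941 are in the table. Values of some genes are not reported here. Coordinates are of GENCODE M21, which 98.8% of the identifiers matched. Alternatives were quantile normalisation, a pseudocount of 5, no filter or a filter at 50, the replicate block, only the groups compared in the fit, the 2 libraries with conflicting labels left out, library weights, and each replicate left out. Among the 35 called genes, 13 share exon sequence with a gene on the opposite strand and 3 with one on the same strand. Tables and plots were made with pandas 2.3.3, numpy 2.4.6 and matplotlib 3.10.9 (Python 3.11.15).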

Additional observations from a re-analysis of the deposited data

Results flagged for a closer look

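The response to caged food at 60 min differed from that at another time by a direct test in 8 of the called genes against 30 min and in 18 against 120 min (limma, Benjamini-Hochberg over all genes). Of all genes tested, 0.169% and 1.05% differed in these comparisons. The genes had been chosen on the same 60 min libraries, and in each the difference went the way of the difference from fasted livers. Against 30 min, the log2 difference of 60 min caged food livers was 1.06 for Ip6k2, 0.77 for Ints6, 0.70 for Pfkfb1, 0.56 for Susd6, 0.56 for D230025D16Rik and 0.34 for Kansl1, with adjusted p between 0.0109 and 0.0270. It was -0.66 for Dgke (adjusted p = 0.0334) and -0.62 for Bcl9 (adjusted p = 0.0109).

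Against 120 min, the log2 difference of 60 min caged food livers was 1.69 for 8430408G22Rik, 1.46 for Ip6k2, 1.36 for Il1r1, 1.02 for Herpud1 and 1.0 for Trp53inp1. It was 0.79 for Rbm12b2, 0.77 for Ints6, 0.73 for Sdc4, 0.69 for Zpr1, 0.60 for Tmcc1, 0.53 for Lurap1l and 0.43 for Rabgef1. Among the fallers it was -0.99 for Sowahb, -0.94 for Vsig10l, -0.83 for Bcl9, -0.71 for Dgke and -0.59 for Rcor3. The adjusted p of the 18 genes lay between 5.05e-05 (Ip6k2) and 0.0349 (Herpud1). Without 60 min replicate 2, 7 of the 35 genes differed from 30 min and 11 from 120 min, beside 0.195% and 0.441% of all genes.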

How the results depend on the processing

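The number of genes called between caged food 60 min and fasted livers depended on the processing. In place of 35 it was 19 with quantile normalisation, 14 with no filter on low values, 20 with the replicate block, 20 without the libraries with conflicting labels and 0 in the fit of only the groups compared, where 1401 genes had an unadjusted p under 0.05 in limma. A pseudocount of 5 gave 35, a filter at 50 gave 42 and library weights gave 40. Leaving out each replicate in turn gave 2 (without fasted replicate 3) to 34 genes (without fasted replicate 1), with 5 without fasted replicate 2, and 15, 10 and 16 without caged food replicates 1, 2 and 3. Without caged food replicate 2, the count of 10 became 33 with library weights and 1 with only the groups compared.

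Against refed 60 min, only the groups compared gave 465 genes, and leaving out a replicate gave 1210 to 1700. Against caged food 30 min (27 genes), a filter at 50 gave 44, only the groups compared gave 1, and leaving out a replicate gave 8 to 31. Against caged food 120 min (167 genes), no filter gave 100, library weights 103, only the groups compared 11, and leaving out a replicate 32 to 200. The cause of these changes was not tested.

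Of the named genes, 4 that were not called changed sign. Leaving out each replicate in turn put the log2 difference of Fgf21 at -0.19 to 0.51, of Fos at -0.23 to 0.73, of Nr4a1 at -0.07 to 0.27 and of Pck1 at -0.06 to 0.12, and quantile normalisation put Pck1 at -0.14. The calls of Mir294, Wisp2 and 1700028J19Rik rest on at most 40 normalised counts a library.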

Other observations

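Several genes outside the groups above differed in level between the groups and were not called. Cirbp, a cold-inducible RNA-binding protein, had 1451, 1606 and 1511 normalised counts in the caged food livers and 1942, 2339 and 2502 in the fasted livers, a log2 difference of -0.56 (limma adjusted p = 0.0582). Its relative Rbm3 went the other way, with 665, 797 and 696 in the caged food livers and 618, 570 and 562 in the fasted livers (0.30, limma adjusted p = 0.242). Neither gene overlapped between the groups, which was so for 14.7% of all genes tested. Among 26 splicing factors, none was called, and the median log2 difference was 0.05, beside 0.01 over all genes tested. An unadjusted p under 0.05 was reached by 7 on the higher side and 4 on the lower side, beside 5.27% and 4.58% of all genes. Without replicate 2 these counts were 5 and 4, beside 5.44% and 5.21%. Srsf5 had 7540, 7554 and 8259 in the caged food livers and 9714, 9758 and 9411 in the fasted livers (-0.31, limma adjusted p = 0.0552). Clk1, a kinase of splicing factors of this kind, had 4376, 4772 and 4078 in the caged food livers and 3569, 3391 and 3736 in the fasted livers (0.30, limma adjusted p = 0.0571).

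Cidec, a lipid droplet protein on the adipocyte list that fasted liver also expresses, had 473, 645 and 738 normalised counts in the caged food livers and 1371, 1360 and 1391 in the fasted livers. The groups were far apart and the log2 difference of -1.17 was not called (limma adjusted p = 0.555, SE 0.63). Lpin1, a phosphatidate phosphatase and coactivator, had 13842, 10670 and 6588 in the caged food livers and 3991, 4302 and 1035 in the fasted livers, a log2 difference of 1.92 without overlap (limma adjusted p = 0.133).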
